A study of Mus musculus with 6 samples.

Results

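Transcripts of 9 proteins that the liver secretes into blood were followed in the livers of obese mice after weight-loss surgery. The genes were Fgf21, Gdf15, Angptl4, Angptl6, Angptl8, Ahsg, Fetub, Lect2 and Rbp4, chosen by name as hepatokines or angiopoietin-like proteins. They are 9 of the 55385 genes in the count table. All 9 were found under GENCODE M21 symbols, and all 9 passed the filter on low counts, which left 14454 genes for testing. Hepatokines are liver proteins that reach other tissues through the circulation and alter how those tissues handle fuel. Several angiopoietin-like proteins act within plasma lipid transport, where ANGPTL4 and ANGPTL8 restrain lipoprotein lipase, the enzyme that releases fatty acids from triglyceride-rich lipoproteins. Fetuins, LECT2 and RBP4 circulate as abundant or regulated plasma proteins that have been tied to insulin action in obesity.

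The livers came from male mice fed a high-fat diet (HFD). Feeding began at 6 to 8 weeks of age and lasted 10 weeks before the operation, and the same diet was given for 12 weeks after it. The VSG group of 3 mice had vertical sleeve gastrectomy, in which most of the stomach is removed, and the sham group of 3 mice had a control operation. Both groups therefore carried the diet, and no lean mice were among the libraries used here. The study's methods for these RNA libraries do not state whether the mice were fasted or fed when the livers were taken. Strand-specific poly(A) RNA libraries were made from pieces of whole liver, so fewer cells of a type and less RNA per cell cannot be told apart for any gene.

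Total counts per library ran from 22804397 to 24191778. Values per library are CPM, counts scaled to library size with TMM factors that adjust for composition, and are given as mean ± SD (n = 3) where a group is summarised. FPKM, which also divides by gene length, was used to compare levels between genes. The liver label held up, with 10 hepatocyte markers summing to 77800 to 124000 CPM in the sham and 65860 to 103500 CPM in the VSG group. The 13 neutrophil markers summed to 3.02 to 15.9 CPM in the sham and 158.5 to 1909 CPM in the VSG group, and 20 of 20 positive acute phase genes passed the test as higher after VSG. That count was 12, 10 and 1 on dropping sham replicates 1, 2 and 3, and 14, 20 and 6 on dropping VSG replicates 4, 5 and 6, with all 20 at an unadjusted p under 0.05 each time. Whether these neutrophil and acute phase transcripts had a part in the differences of the 9 genes was not tested. VSG replicate 5 stood closest to the sham livers, with a mean Pearson correlation across genes, of log2(CPM + 1), of 0.964 with them and 0.972 with the other VSG livers.

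DNA upstream of the transcription start is shown for the 3 genes that passed the test and for Fgf21 and Angptl8. The latter 2 are nutrient-responsive genes whose windows held the C/EBP-ATF letters known from stress and feeding control. The Fetub stretch ends at the last base before the annotated gene, short of the RefSeq start at 22918382 from which its positions are counted. The Fgf21 and Angptl8 stretches are 60 bases around their C/EBP-ATF letters. RefSeq promoter windows on GRCm38.p6, from 250 bases before to 50 bases after a start, were used for all genes but Angptl4, 11 windows for 8 genes. Capitals mark matches, on either strand, to TGATGNAAN (a C/EBP-ATF element), CCAAT, TTNCNNGAA (STAT) or a loose direct repeat 1, which is AGGTCA repeated with 1 base between and at most 2 mismatches in its 12 letters. Among all 32851 windows, 3.95% held the C/EBP-ATF letters, 37.4% CCAAT, 13.0% the STAT letters and 3.86% the loose direct repeat 1. CACGTG, the E box, was held by 7.15% and GGGNNTTCC, an NF-kB form, by 5.82%. All sequences are written 5′ to 3′ on the strand of the gene.
Fetub, chr16:22918132-22918333, plus strand: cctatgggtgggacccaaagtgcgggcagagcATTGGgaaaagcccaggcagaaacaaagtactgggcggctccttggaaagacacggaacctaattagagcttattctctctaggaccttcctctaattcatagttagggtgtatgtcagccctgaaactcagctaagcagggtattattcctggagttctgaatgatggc
Lect2, chr13:56548539-56548788, minus strand: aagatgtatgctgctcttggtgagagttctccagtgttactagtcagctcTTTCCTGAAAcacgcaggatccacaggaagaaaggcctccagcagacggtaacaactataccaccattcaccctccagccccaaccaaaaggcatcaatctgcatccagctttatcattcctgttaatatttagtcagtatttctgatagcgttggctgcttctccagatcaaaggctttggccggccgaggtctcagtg
Gdf15, chr8:70632457-70632706, minus strand: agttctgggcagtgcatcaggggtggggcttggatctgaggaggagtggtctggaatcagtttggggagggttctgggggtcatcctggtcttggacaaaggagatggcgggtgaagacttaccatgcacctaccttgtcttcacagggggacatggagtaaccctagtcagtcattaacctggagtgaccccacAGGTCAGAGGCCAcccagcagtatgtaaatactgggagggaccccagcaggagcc
Fgf21, chr7:45615597-45615656, minus strand: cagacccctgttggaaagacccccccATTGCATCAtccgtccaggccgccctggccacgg
Angptl8, chr9:21835354-21835413, plus strand: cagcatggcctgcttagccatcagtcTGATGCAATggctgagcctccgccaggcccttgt
Fetub held CCAAT letters on the opposite strand from 218 to 214 bases before the upstream one of its 2 starts. On the strand of the gene, CCAAT letters also lay at bases 45 to 49, counting that start as base 1. The window of the second Fetub start, at 22920222, held no match. Lect2 held a STAT match on each strand, with the 2 matches overlapping between 200 and 191 bases before the start. Gdf15 held the loose direct repeat 1 with 1 mismatch from 55 to 43 bases before the upstream one of its 2 starts. The C/EBP-ATF letters lay 140 to 132 bases before the Fgf21 start and 130 to 122 bases before the Angptl8 start. Outside the stretches printed, E box letters lay 50 to 45 bases before the Fgf21 start and 83 to 78 bases before the downstream Gdf15 start. Rbp4 held C/EBP-ATF letters 76 to 68 bases before the upstream one of its 2 starts, and CCAAT letters on the opposite strand at 162 to 158. The downstream Gdf15 start also had CCAAT letters, opposite strand, at 6 to 2 bases before it. Ahsg and Angptl6 held no match before their starts, and Ahsg held CCAAT letters on the opposite strand at bases 23 to 27, counting the start as base 1. A match is a description of the letters and shows no binding.

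Of the 9 genes, 3 passed the test between VSG and sham livers at an adjusted p under 0.05 (edgeR quasi-likelihood test, Benjamini-Hochberg adjustment over all 14454 genes). That is 33.3%, where 14.7% of all genes tested passed. Fetub was higher after VSG, 1 gene of 9 where 6.79% of all genes were called higher. Lect2 and Gdf15 were lower, 2 genes of 9 where 7.87% of all genes were called lower. The libraries of the 2 groups did not overlap in 5 of the 9 genes (55.6%, and 39.7% of all genes tested), the other two being Ahsg and Angptl4. The median log2 fold change was -0.44 over the 9 genes and 0.03 over all genes tested. The 9 genes were chosen by name, with earlier results of these data known. These shares therefore describe the list only, and no test of the list was made.

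**Figure D1:**
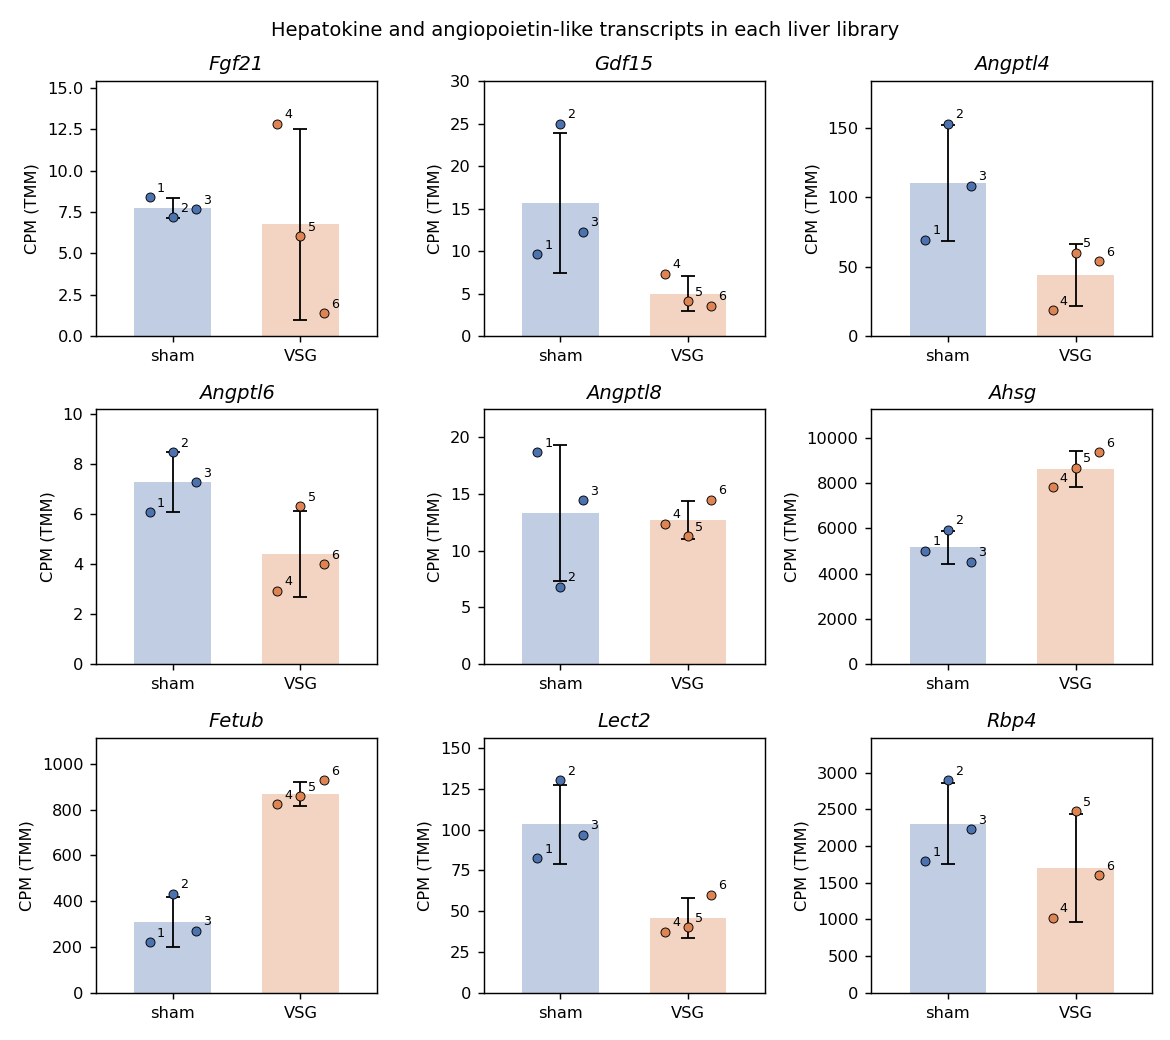
CPM of each gene in each library, in a panel with its own axis from 0. Points are libraries labelled by replicate number, bars are means of 3 libraries and error bars are SD. The VSG points of Fetub lie between 824 and 927 CPM, all above the sham points, while VSG points of Fgf21 spread from 1.38 to 12.85 CPM around the sham points.

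Fetub, which encodes fetuin-B, a plasma inhibitor of the ovastacin protease that keeps oocytes fertilisable and a hepatokine raised in fatty liver, was the gene of the 9 called higher in edgeR. The gene lies on chromosome 16, 22918334 to 22939778 (mm10), plus strand. Sham replicates 1 to 3 gave 222, 432 and 272 CPM, and VSG replicates 4 to 6 gave 824, 859 and 927 CPM. Every VSG liver was above every sham liver, and the VSG livers were close to each other, with a coefficient of variation of 6.03% against 35.7% in sham livers. The mean went from 308.5 ± 110 to 870 ± 52.4 CPM, a 2.82-fold rise (log2 fold change 1.50, SE 0.263, 95% interval 0.87 to 2.12, edgeR adjusted p = 0.0191). The call was kept in 12 of 14 alternative analyses and lost without sham replicate 3 (adjusted p = 0.0995) or VSG replicate 6 (adjusted p = 0.0770).

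Ahsg encodes fetuin-A, which binds calcium phosphate in plasma and inhibits the insulin receptor. It ends 18.9 kb before Fetub and had the highest mean level per length of the 9 transcripts in both groups. Sham replicates 1 to 3 gave 5013, 5946 and 4525 CPM and VSG replicates 4 to 6 gave 7816, 8668 and 9370 CPM. The groups did not overlap, and Ahsg alone took 0.492% to 0.574% of all counts in sham and 0.757% to 0.863% in VSG livers. Its log2 fold change, 0.74 (SE 0.252, 95% interval 0.14 to 1.34), missed the threshold (edgeR adjusted p = 0.0924). DESeq2 gave a similar size, 0.72, with an adjusted p of 2.517e-04. In the annotation, 62 exon bases of Ahsg lie opposite the antisense gene Gm30505, and the strand option of the counting is not given in the sources used here.

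Ahsg and Fetub are neighbours in a row of 5 genes for plasma proteins with cystatin domains, followed by Hrg, Kng2 and Kng1, within 190.8 kb. Hrg encodes histidine-rich glycoprotein, and both Kng genes encode kininogens, the precursors of bradykinin. All 5 genes had VSG libraries above every sham library, as had 2863 of all 14454 genes tested. Kng1 went from 1424 ± 148 to 2881 ± 251 CPM (log2 fold change 1.02, edgeR adjusted p = 0.0216). Kng2 went from 222.5 ± 10.7 to 393 ± 30.4 CPM (log2 fold change 0.82, adjusted p = 0.0131). Of Hrg, Kng1 and Kng2, edgeR called 2 higher, 1 on dropping sham replicate 1 and 0 on dropping sham replicate 3 or VSG replicate 6, where 2 had an unadjusted p under 0.05. Hrg resembled Ahsg, with a log2 fold change of 0.72 and an adjusted p of 0.0961. On the low-coordinate side Dnajb11, an endoplasmic reticulum chaperone gene, was also higher (0.60, adjusted p = 0.0485). The next tested genes beyond Kng1, Eif4a2 and Rfc4, overlapped between the groups, with log2 fold changes of -0.16 and -0.23. Farther on, St6gal1, a sialyltransferase gene, was higher again (1.52, adjusted p = 0.0350), and Masp1, a gene of the lectin complement pathway, had VSG libraries above every sham library (0.28, adjusted p = 0.195), while Rtp4, a receptor-transporting protein gene, was lower (-1.15, adjusted p = 0.0387). On the low-coordinate side Tbccd1, Dgkg and Etv5 overlapped between the groups. Within each liver, Fetub stood at 4.95%, 8.14% and 6.72% of the Ahsg FPKM in sham and at 11.8%, 11.1% and 11.1% in VSG livers. This ratio did not overlap between the groups, and its p of 0.1 in the two-sided exact permutation test is the smallest that 3 against 3 allows.

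**Figure D2:**
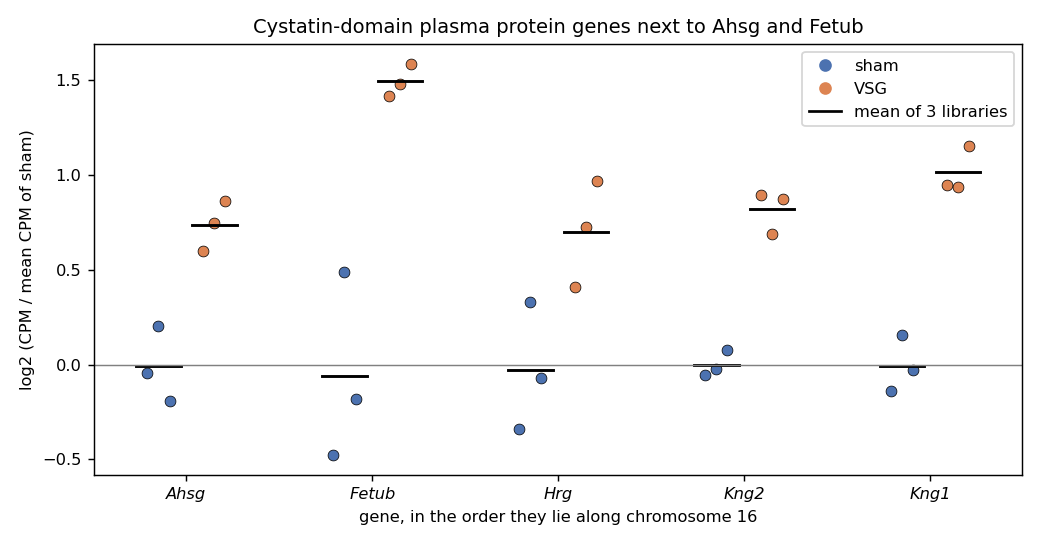
CPM of the 5 neighbouring genes in each library as log2 of the ratio to the sham mean, in their order along chromosome 16. Black lines are means of 3 libraries. VSG libraries lie above sham libraries in each gene, with the widest gap in Fetub, where VSG values run from 1.42 to 1.59.

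Lect2, on chromosome 13, 56542464 to 56548502, minus strand, encodes leukocyte cell-derived chemotaxin, a hepatokine that rises in obesity and binds the receptors Met and Tie1. Sham livers gave 82.5, 130 and 96.8 CPM, and the VSG livers 37.4, 40.4 and 60.1 CPM. No VSG liver reached the lowest sham liver. Lect2 fell 2.245-fold (log2 fold change -1.17, SE 0.239, 95% interval -1.74 to -0.60, edgeR adjusted p = 0.0269). As a share of the albumin (Alb) FPKM of the same liver it was 0.432% ± 0.0385 in sham and 0.239% ± 0.0522 in VSG livers, again without overlap (exact permutation p = 0.1). The adjusted p was 0.0668 when sham replicate 2 was dropped, 0.0989 when sham replicate 3 was, 0.0628 for VSG replicate 4 and 0.0536 for VSG replicate 6, and each of these lost the call.

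Rbp4, on chromosome 19, 38116629 to 38125281, minus strand, encodes retinol-binding protein, which carries vitamin A out of the liver bound to transthyretin (Ttr). It was second in abundance after Ahsg. Sham livers held 1791, 2894 and 2230 CPM and VSG livers 1027, 2476 and 1600 CPM. The groups overlapped, since VSG replicate 5 lay above 2 of the 3 sham livers. The log2 fold change was -0.44 with a 95% interval from -1.29 to 0.41 (edgeR adjusted p = 0.418), and no alternative called it. Ttr, its carrier, went from 3361 ± 799 to 1896 ± 525 CPM (log2 fold change -0.83, adjusted p = 0.103). Rbp4 FPKM was 60.6% ± 1.48 of Ttr FPKM in sham and 77.0% ± 12.5 in VSG livers, and every VSG liver had the higher ratio (exact permutation p = 0.1).

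Gdf15, on chromosome 8, 70629393 to 70632456, minus strand, encodes a stress-induced hormone that lowers food intake through the hindbrain receptor GFRAL. Sham livers gave 9.60, 25.0 and 12.3 CPM and VSG livers 7.33, 4.10 and 3.58 CPM, from 75 to 548 counts per library. All 3 VSG livers lay below all 3 sham livers, with sham replicate 2 far above the others. Gdf15 fell 3.115-fold (log2 fold change -1.64, SE 0.434, 95% interval -2.67 to -0.61), and its edgeR adjusted p of 0.0498 was just under the threshold. The call stood in 5 of 14 alternatives. It was lost when any 1 library was left out, with adjusted p from 0.0509 without VSG replicate 4 to 0.156 without VSG replicate 6, and the log2 fold change was -1.13 without sham replicate 2. Gfral had 0 counts in all 6 libraries, which allows up to 0.111 to 0.143 CPM at a floor of 3 counts.

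Fgf21, on chromosome 7, 45613886 to 45615490, minus strand, encodes a fasting and stress hormone that acts through FGF receptors with the coreceptor beta-klotho (Klb). The sham livers were alike at 8.38, 7.17 and 7.67 CPM. The VSG livers gave 12.85, 6.03 and 1.38 CPM, from 284 counts in replicate 4 down to 29 in replicate 6. VSG livers thus lay on both sides of the sham range, and the coefficient of variation was 85.4% after VSG and 7.86% after sham. The log2 fold change was -0.20 with a 95% interval from -1.73 to 1.34 (edgeR adjusted p = 0.851). Without VSG replicate 4 it was -1.05 and without VSG replicate 6 it was 0.28, neither past the threshold (adjusted p = 0.252 and 0.5998).

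Angptl4, on chromosome 17, 33773750 to 33781830, minus strand, encodes an inhibitor of lipoprotein lipase that fasting and fatty acids induce. Sham livers held 69.5, 153 and 108 CPM and VSG livers 18.6, 60.1 and 54.1 CPM. The groups did not overlap, and VSG replicate 4 was lowest. The log2 fold change was -1.32 (SE 0.470, 95% interval -2.44 to -0.20) and missed the threshold in edgeR (adjusted p = 0.103) while DESeq2 gave -1.33 with an adjusted p of 0.0247.

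Angptl8, on chromosome 9, 21835510 to 21837347, plus strand, encodes a feeding-induced regulator of lipoprotein lipase. Sham livers gave 18.65, 6.81 and 14.4 CPM and VSG livers 12.35, 11.2 and 14.45 CPM. All VSG values fell inside the sham range. The log2 fold change was -0.07 with a 95% interval from -0.88 to 0.74 (edgeR adjusted p = 0.899), an interval that leaves room for a change in either direction, and it was 0.25 without sham replicate 1.

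Angptl6, on chromosome 9, 20873808 to 20879727, minus strand, encodes a circulating growth factor linked to energy expenditure. Sham livers gave 6.09, 8.50 and 7.29 CPM and VSG livers 2.94, 6.33 and 4.01 CPM. The groups overlapped through VSG replicate 5, which was above sham replicate 1. The log2 fold change was -0.72 (SE 0.296, edgeR adjusted p = 0.142), and without VSG replicate 5 it was -1.09 with an adjusted p of 0.0315. Angptl6 shares 265 exon bases with A230050P20Rik on the opposite strand, a gene at 66.0 ± 11.0 CPM in the sham and 89.5 ± 3.14 CPM in the VSG group. Angptl6 is therefore uncertain, because the strand option of the counting is not given.

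**Figure D3:**
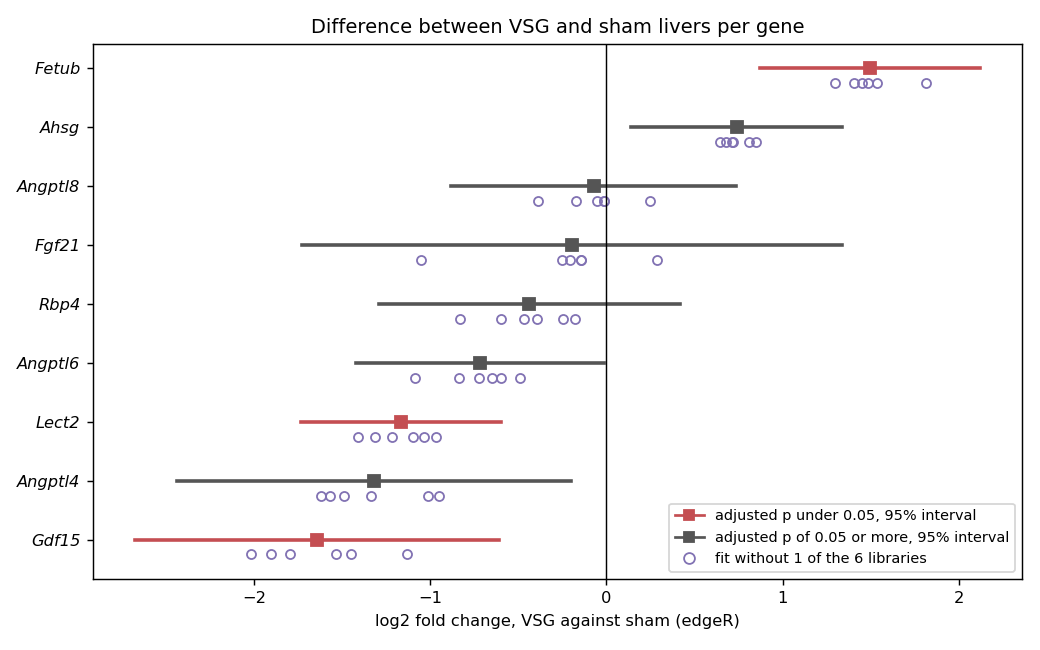
Log2 fold change of VSG against sham for each gene from the edgeR fit, with 95% intervals; red marks an adjusted p under 0.05. Open circles are fits that leave out 1 of the 6 libraries. Intervals of 6 genes lie on 1 side of 0, those of Fetub, Lect2 and Gdf15 in red and those of Ahsg, Angptl4 and Angptl6 in grey, and open circles fall on both sides of 0 in Fgf21 and Angptl8.

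The order of levels per length in sham livers was Ahsg (2349 FPKM), Rbp4 (1716), Fetub (157), Lect2 (112), Angptl4 (31.2), Angptl8 (15.4), Gdf15 (8.44), Fgf21 (8.14) and Angptl6 (4.61 FPKM). The sham ranges of Ahsg and Rbp4 overlapped, as did those of Fetub and Lect2 and of neighbours from Angptl4 to Fgf21, so these neighbours are not separated beyond the spread between mice. Within each sham library Ahsg was above Rbp4 and Fetub above Lect2. In VSG livers the first 4 genes kept this order with ranges that did not overlap, at 3923 FPKM for Ahsg, 1267 for Rbp4, 443 for Fetub and 49.99 for Lect2. Among the other five, Gdf15 moved from the seventh to the last place, at 2.70 FPKM, with a range that overlapped that of Angptl6. Neighbours from Angptl8 (14.7 FPKM) down to Gdf15 overlapped throughout in VSG livers.

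**Figure D4:**
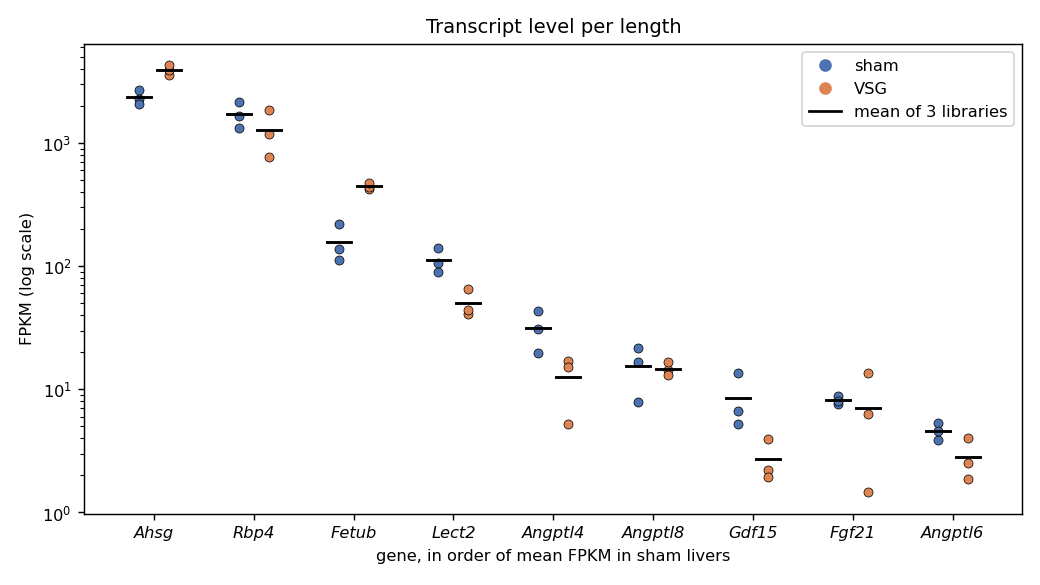
FPKM of the 9 genes on a log axis, ordered by their sham mean, with points for libraries and lines for means of 3. Sham means span from 2349 FPKM for Ahsg to 4.61 FPKM for Angptl6, and Fetub and Lect2 separate in VSG livers at 443 and 49.99 FPKM.

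Across the 6 libraries, log2 CPM of Angptl4, Angptl6 and Rbp4 moved together, with Pearson r from 0.92 to 0.96 between them, and Ahsg and Fetub had r = 0.93. Ahsg ran opposite to Lect2 and Gdf15 (r = -0.90 for each). These values include the group difference and rest on 6 libraries that differ in composition (TMM factors 0.897 to 1.15), so they describe the libraries only. By the same measure over 9739 protein-coding genes at 5 CPM or more on average, the genes most like Fetub were Mug1, a murinoglobulin protease inhibitor (r = 0.99), Ttll4 and Mbl1, a mannose-binding lectin. The nearest to Ahsg were 4932438A13Rik, C8a, a complement component, and Avpr1a. Lect2 was most like Gbp10, Bpnt1 and Otud6b, and Gdf15 most like Nmrk1, Ccng2 and Ippk. Angptl4 was nearest to Timd2, Anpep and Sugct, Angptl6 to Gabarapl1, Inmt and Ecm1, and Rbp4 to Msrb1, Hagh and Fzd8. Fgf21 was nearest to Fuom, Dgat1 and Sys1, and Angptl8 to Pomk, Pdlim7 and Phf5a. The highest r among 9739 genes over 6 libraries is large through the selection itself, so these names too describe the libraries only.

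The genes on which the 9 proteins act or depend were read from lists. Calls in these lists moved with the libraries. Over the 6 edgeR fits that drop 1 library, lower calls ran from 0 to 5 in the lipase list, from 2 to 11 in the PPAR alpha list and from 0 to 5 among retinoid genes. Higher calls ran from 0 to 3 among receptors and from 0 to 4 in the stress response list, and the other hepatokines had 2 to 7 higher and 0 to 3 lower. The fewest calls came on dropping sham replicate 3 or VSG replicate 6, where 1.07% and 1.42% of all genes were called, and dropping sham replicate 2 also left 1 call each in the lipase and receptor lists and 1 lower call among retinoid genes. Dropping VSG replicate 4 left 1 lipase call and 0 lower calls among other hepatokines. Of 14 genes of the lipoprotein lipase pathway, 0 were higher and 3 lower after VSG in edgeR, namely the endothelial lipase Lipg (log2 fold change -2.06, adjusted p = 0.0240), the convertase Pcsk6 (-1.10, 0.0313) and the lipoprotein receptor Vldlr (-2.23, 0.0414). Lpl itself ranged from 48.3 to 222 CPM after sham and from 109 to 223 CPM after VSG and did not pass (0.31, adjusted p = 0.710). Among the other angiopoietin-like and angiopoietin genes tested, Angptl2 was lower (-1.45, adjusted p = 0.0346), and this list had 0 lower calls in edgeR on dropping any library but VSG replicate 5, with 2 or 3 genes at an unadjusted p under 0.05. In the other direction, 1 gene of this list was called higher by DESeq2, and by edgeR with a filter of 1 count or without VSG replicate 5.

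Of 18 receptors and binding partners tested, 3 were higher and 0 lower in edgeR. Fgfr1, a receptor of FGF21, gave 13.7, 5.71 and 9.35 CPM after the sham operation and 39.5, 34.6 and 33.0 CPM after VSG. Every VSG liver was above every sham liver (log2 fold change 1.89, edgeR adjusted p = 0.0149). Fgfr4, the main FGF receptor of hepatocytes, went from 28.0 ± 2.53 to 60.6 ± 17.1 CPM (1.12, adjusted p = 0.0200). Klb, the coreceptor both need, was at 32.1 ± 4.75 and 32.5 ± 11.7 CPM (0.02, adjusted p = 0.962). Stra6l, a liver receptor for RBP4, went from 160 ± 18.9 to 267 ± 56.3 CPM (0.74, adjusted p = 0.0405). The LECT2 receptors Met (0.17, adjusted p = 0.452) and Tie1 (-0.51, adjusted p = 0.202) did not pass.

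Of 21 other hepatokine genes, 6 were higher and 3 lower, with a median of 0.01. Fgl1, a hepatocyte-derived ligand of the immune checkpoint LAG3, went from 281 ± 56.9 to 2417 ± 468 CPM (log2 fold change 3.11, edgeR adjusted p = 0.0029). Enho, the adropin gene, went from 2.33 ± 0.343 to 16.6 ± 3.68 CPM (2.83, adjusted p = 0.0027). Fst, the activin antagonist follistatin (1.73), and Orm1, an acute phase protein (3.41), were also higher. Tsku, tsukushi (-1.95), Hgf, hepatocyte growth factor (-0.72), and Gdf2, bone morphogenetic protein 9 (-0.90), were lower.

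Genes under regulators known for Fgf21, Gdf15 and Angptl4 were counted beside them. PPAR alpha is the fatty acid sensor that induces Angptl4 and Fgf21 in fasting. Of 22 of its targets beside them, 0 were higher and 7 lower in edgeR, with a median of -0.85, and 13 were lower in DESeq2. Acot2 (-2.98), Plin2 (-1.47), Pdk4 (-2.28) and Acaa1b (-2.01) had the smallest p, and neither Ppara itself (-0.76, edgeR adjusted p = 0.217) nor Creb3l3, a listed target and liver transcription factor (-0.46, 0.137), passed. Of 19 integrated stress response genes, 2 were higher and 0 lower in edgeR, with a median of 0.04, and 7 of 20 were higher and 2 lower in DESeq2, which tested 1 gene more. The edgeR calls were Asns, asparagine synthetase, from 1.69 ± 1.68 to 49.8 ± 14.4 CPM (4.85, adjusted p = 0.0101), and Atf4 (0.52, adjusted p = 0.0463). Of 12 p53 and DNA damage targets, a group to which Gdf15 also belongs, 0 passed in edgeR and in both limma fits, and 4 were lower in DESeq2. In edgeR 2 were lower with total counts, 3 with a filter of 1 count, 1 each on dropping sham replicate 2 or VSG replicate 4, and 5 had an unadjusted p under 0.05 in edgeR.

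Of 14 lipogenic and carbohydrate-responsive genes, the setting in which Angptl8 and Fgf21 answer to feeding, 0 were higher and 11 lower in edgeR, with a median of -1.55. The count of lower genes was 2 on dropping sham replicate 3 and 4 on dropping VSG replicate 6, with 12 at an unadjusted p under 0.05 in both fits. Acacb (-2.27), Me1 (-2.42), Acaca (-0.84) and Thrsp (-4.40) had the smallest p, and Mlxipl, which encodes the carbohydrate-response factor ChREBP, did not pass (0.10, edgeR adjusted p = 0.832). Of 18 retinoid genes beside Rbp4, 1 was higher and 5 lower, with a median of -0.26. The retinol dehydrogenases Rdh16 (-1.61) and Rdh10 (-0.60), Ces1g (-2.24) and the retinoic acid receptor Rarb (-1.03) were among the lower ones.

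Fetuin-A is classed as a negative acute phase protein, whose level drops in inflammation. Of 13 other negative acute phase genes, 2 were higher and 0 lower in edgeR, with a median of 0.04, while DESeq2 called 3 higher and 3 lower. Higher calls in edgeR numbered 1 on dropping sham replicate 1 or 2 or VSG replicate 4, and 0 on dropping sham replicate 3 or VSG replicate 6, with 3 and 2 at an unadjusted p under 0.05, and dropping VSG replicate 5 gave 3 higher and 1 lower. Of 20 positive ones 20 were higher and 0 lower in edgeR, with a median of 2.45. Apom, apolipoprotein M (1.10, edgeR adjusted p = 0.0168), and Itih2, an inter-alpha-trypsin inhibitor chain (0.87, adjusted p = 0.0325), were the genes called higher with all libraries.

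**Figure D5:**
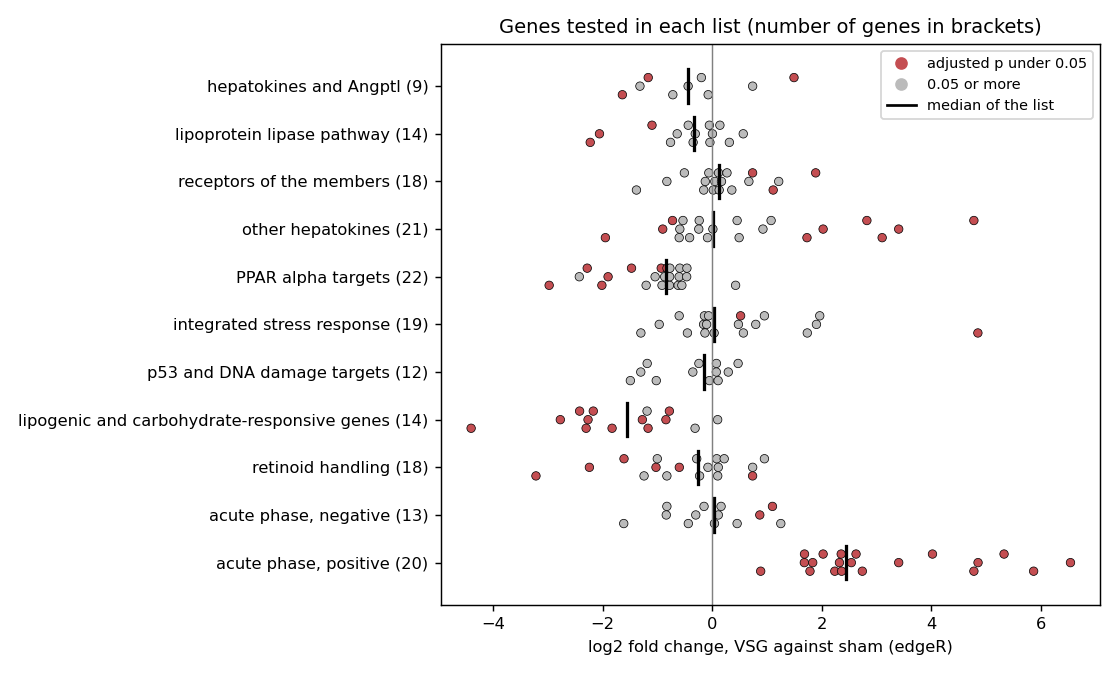
Log2 fold change of VSG against sham for each tested gene of the 9 and of 10 lists, with red points for an adjusted p under 0.05 and black lines for list medians. The lipogenic median lies at -1.55 and the positive acute phase median at 2.45, with the 9 hepatokine and angiopoietin-like genes between them at -0.44.

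The markers of other liver cells moved unevenly between the groups. Of 14 macrophage markers, 4 were higher and 0 lower, with sums from 560 to 1256 CPM after sham and from 1129 to 3230 CPM after VSG. The edgeR count was 0, with 6 at an unadjusted p under 0.05, on dropping sham replicate 2 or 3 or VSG replicate 6, and it was 2 on dropping VSG replicate 4. Of 10 stellate cell markers 1 was lower in edgeR and 6 in DESeq2, 8 had an unadjusted p under 0.05 in each, and all 10 had a log2 fold change below 0 (median -0.96). The unadjusted edgeR count was 2 on dropping sham replicate 1 or 3 or VSG replicate 6, and it was 3 on dropping VSG replicate 4. Their sums ran from 653.5 to 1031 CPM after sham and from 323 to 632 CPM after VSG, without overlap. Of 10 endothelial markers 0 passed in edgeR or DESeq2 (1 at an unadjusted p under 0.05 in each), and of 8 lymphocyte markers 1 was higher. Of 5 cholangiocyte markers 1 was higher, Sox9 (log2 fold change 1.77), the only 1 of the 5 above 0 in a list with a median of -0.76. The count was 0 in both limma fits and in edgeR on dropping sham replicate 1, 2 or 3 or VSG replicate 6. The adipocyte list summed to 141 to 199.9 CPM after sham and 49.2 to 50.95 CPM after VSG, with its defining genes Adipoq, Lep and Plin1 below the filter on low counts. Of its 4 tested genes Cidec, from 90.9 ± 30.0 to 1.02 ± 0.580 CPM, and Pparg, from 29.1 ± 1.51 to 12.4 ± 1.87 CPM, were lower, and Fabp4 (-0.19, edgeR adjusted p = 0.429) and Lipe (-0.10, 0.760) did not pass. The part of these cells in the levels of the 9 genes was not tested. Of 15 tested nearest protein-coding neighbours that are not among the 9 genes, 2 were higher (Dnajb11 and Ffar4) and 1 lower (Pgpep1, next to Gdf15, log2 fold change -0.52, edgeR adjusted p = 0.0326).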

How the data were processed

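Poly(A) RNA libraries of 6 livers were grouped by title as 3 sham and 3 VSG, with 1 mouse each per the study's methods. The authors deposited raw read counts per gene with each gene's exon length, which served for FPKM only. The submitters' processing notes name FastQC 0.10.1, STAR 2.6.0, featureCounts 2.0.3 and mm10. Not given in the sources used here are the annotation release, the strand option and how multiply mapped reads were handled. Of 55385 genes, 55144 matched GENCODE M21, which gave the symbols.

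Tests used edgeR 4.0.16 (R 4.3.3): filterByExpr (minimum count 10, total 15), TMM factors (0.897 to 1.15), group as the only term, checked on simulated data. Adjusted p-values are edgeR's unless another tool is named. They set the group difference against the spread between 3 mice per group, moderated across genes, and depend on all genes tested. Floors of 3 counts cover counting error only. Chi-square per degree of freedom was at least 27.5 between libraries of a group, so none was a repeat within counting noise. Alternatives were DESeq2 1.42.0, limma-voom and limma on log2(FPKM + 1) (limma 3.58.1), RLE factors, total counts, 2 other filters, prior count 2, and each library left out in turn. The 9 genes and all lists were chosen with earlier results of these data known. Others named were known partners, up to 4 genes with an adjusted p under 0.05 per list and direction, the 3 most correlated genes, nearest neighbours and genes overlapping the 9. Eif4a2, Rfc4, St6gal1, Masp1, Rtp4, Tbccd1, Dgkg, Etv5, Met, Tie1 and the named adipocyte markers were chosen after their values were seen. The results of 1 listed gene are not reported here.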

Additional observations from a re-analysis of the deposited data

How the results depend on the processing

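The number of the 9 genes called was 3 in edgeR, where 14.7% of all genes tested passed. DESeq2 called 5, adding Ahsg and Angptl4, where 19.3% of all genes passed. The count was 0 to 3 when 1 library was left out. Without sham replicate 3 (1.07% of all genes called) or VSG replicate 6 (1.42%) edgeR called 0, where 3 and 4 of the 9 had an unadjusted p under 0.05. It called 1 on dropping sham replicate 2 (5.34%) or VSG replicate 4 (7.32%). Over all genes the count was 2118, with 159 on dropping sham replicate 3 and 210 on dropping VSG replicate 6. Of the genes in the pathway lists 62 were called, and 8 to 76 with a library left out (41, 34 and 8 on dropping sham replicates 1, 2 and 3, and 15 on dropping VSG replicate 6). Fgf21 reversed to 0.28 without VSG replicate 6, and leaving out each library gave -1.05 to 0.28. Angptl8 reversed to 0.25 without sham replicate 1, with -0.39 to 0.25 over the libraries, and to 0.0020 with limma on log2(FPKM + 1). In the other fits, and for the other 7 genes in all 14, the direction stayed. Scaling by total counts moved the median of all genes to -0.11. Gdf15 also lost its call with limma-voom (adjusted p = 0.0756), limma on FPKM (0.0563) and at least 10 counts in every library (0.0503). Depth limits Fgf21, Gdf15 and Angptl6 most, which had as few as 29, 75 and 65 counts in a library. No paired analysis was possible because the groups share no replicate numbers.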
